A study of Mus musculus with 8 samples.

Results

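The late cornified envelope (Lce) genes were followed across dorsal skin of Balb/c mice in a dermatitis model. All probe sets of the expression array were taken whose annotated symbol was Lce followed by a digit, which gave 17 of 45101 probe sets. They stood for 15 genes, with 13 probe sets in the Lce1 group and 4 in the Lce3 group, and each was annotated to a single gene symbol. The mouse gene table of RefSeq (GRCm38.p6) listed 21 Lce genes, and all 15 measured genes matched it by Entrez identifier. The other 6 genes (Lce6a, Lce1e, Lce1j, Lce1k, Lce3d and Lce3e) had no listed probe set and were not analysed here.

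In DNCB+HY209 skin (n = 3 arrays), the contact sensitizer dinitrochlorobenzene (DNCB) was applied for 15 days and a gel labelled HY209-PEG with 5% HY209, known as an agonist of a bile acid receptor, was given over the last 7 days. In DNCB skin (n = 3) the same DNCB course was combined with vehicle over the same days. Sham skin (n = 2) received no DNCB and no HY209 according to titles and source names, although the protocol fields of these arrays repeat the DNCB text, and this doubt touches each comparison against sham. Ages were not given in the labels. No label ties arrays to different mice, and the p-values therefore speak only of the spread among arrays, which may be technical. RNA came from whole skin, where fewer cells of a type and less RNA per cell cannot be told apart.

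Late cornified envelope proteins are small proteins rich in glycine, serine, cysteine and proline. In the uppermost living layers of the epidermis, transglutaminases cross-link them into the protein shell that replaces the plasma membrane of the corneocyte, after earlier precursors such as involucrin and loricrin. Their genes lie side by side in the epidermal differentiation complex. In human skin the LCE1 group is known for expression in healthy epidermis and the LCE3 group for induction after barrier injury and in psoriasis.

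In the RefSeq order, 24 protein-coding genes lay on chromosome 3 between Lce6a and Lce1m, of which 21 were Lce genes. The other 3 were Kprp between Lce1k and Lce1l, 2310050C09Rik between Lce1l and Lce3a, and Crct1 between Lce3f and Lce1m. The RefSeq promoter table (GRCm38.p6) held 20 Lce promoters, among them those of 14 of the 15 measured genes, and Lce1f was not listed. The last 100 bases before the gene start are printed 5′ to 3′ on the gene's strand for the genes whose values are compared here, to show which of them share upstream sequence. Capitals mark the TATA-like run ATAAAA. They also mark TCACAGG and CAGAGCC, the 2 longest runs (7 bases each) common to the 5 listed promoters of the genes Lce1a1, Lce1b, Lce1a2, Lce1c and Lce1d.
Lce1a1: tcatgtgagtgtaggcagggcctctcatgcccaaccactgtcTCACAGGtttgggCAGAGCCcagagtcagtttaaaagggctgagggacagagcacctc
Lce1a2: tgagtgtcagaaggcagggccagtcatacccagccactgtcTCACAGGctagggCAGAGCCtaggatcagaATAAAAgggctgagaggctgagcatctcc
Lce1b: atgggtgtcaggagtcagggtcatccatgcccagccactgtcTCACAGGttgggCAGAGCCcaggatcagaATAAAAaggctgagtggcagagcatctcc
Lce1c: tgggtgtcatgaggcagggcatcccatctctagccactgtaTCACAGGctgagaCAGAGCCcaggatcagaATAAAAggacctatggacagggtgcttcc
Lce1d: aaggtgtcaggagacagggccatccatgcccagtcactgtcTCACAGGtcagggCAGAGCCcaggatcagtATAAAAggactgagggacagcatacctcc
Lce1h: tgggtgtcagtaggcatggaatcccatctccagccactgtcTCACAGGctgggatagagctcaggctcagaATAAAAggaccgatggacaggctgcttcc
Lce1i: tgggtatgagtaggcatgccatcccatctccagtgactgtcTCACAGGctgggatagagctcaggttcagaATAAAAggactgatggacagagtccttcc
Lce1m: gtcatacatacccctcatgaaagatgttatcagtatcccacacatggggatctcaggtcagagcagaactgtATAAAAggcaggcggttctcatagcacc
Lce3b: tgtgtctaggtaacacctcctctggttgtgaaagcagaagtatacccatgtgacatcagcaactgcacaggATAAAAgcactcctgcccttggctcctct
Lce3c: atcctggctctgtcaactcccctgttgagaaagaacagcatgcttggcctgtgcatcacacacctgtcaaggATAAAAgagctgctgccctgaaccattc
Lce3f: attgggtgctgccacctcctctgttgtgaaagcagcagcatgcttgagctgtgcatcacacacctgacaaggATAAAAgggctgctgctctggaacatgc

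These windows lay for Lce1a1 on chr3:92648308-92648407 (minus strand), for Lce1a2 on chr3:92670316-92670415 (minus strand), for Lce1b on chr3:92656927-92657026 (minus strand) and for Lce1c on chr3:92679147-92679246 (plus strand). They lay for Lce1d on chr3:92687211-92687310 (minus strand), for Lce1h on chr3:92765066-92765165 (minus strand), for Lce1i on chr3:92778900-92778999 (minus strand) and for Lce1m on chr3:93019062-93019161 (minus strand). The Lce3 windows lay for Lce3b on chr3:92932879-92932978 (plus strand), for Lce3c on chr3:92944386-92944485 (plus strand) and for Lce3f on chr3:92992117-92992216 (plus strand). On the gene's strand, ATAAAA was found within 250 bases before the start of 18 of 20 Lce promoters, against 10.2% of all 32851 promoters of the table. It was present in 12 of 13 Lce1 and in 6 of 6 Lce3 promoters, and it began 29 bases before the start of Lce1b and 28 bases before the start of Lce3f. CAGAGCC, searched on the same strand, was in 6 of 20 Lce promoters (Lce1a1, Lce1a2, Lce1b, Lce1c, Lce1d and Lce1e), against 4.84% of all promoters, and in 0 of 6 Lce3 promoters. TCACAGG, searched likewise, was in 8 of 20 Lce promoters (the same 6, Lce1h and Lce1i), against 2.71% of all promoters, and in 0 of 6 Lce3 promoters. Because both runs were picked from those promoters, their presence there is a description. The AP-1 motif TGANTCA, searched on both strands, was in 0 of 20 Lce promoters and in 6.75% of all promoters.

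The Lce1a2 to Lce1e and the Lce3c to Lce3f promoters were more alike within each set than between both sets. The sets were chosen by hand, and Lce1k, Lce1l and Lce3a, which also carry ATAAAA, were in none of them. The likeness within a set is therefore a description. Over 56 bases aligned without gaps at ATAAAA, the promoters of Lce1b, Lce1a2, Lce1c, Lce1d and Lce1e were identical at a median of 78.6% of positions (range 51.8 to 91.1% over 10 pairs). Those from Lce3c to Lce3f were identical at 84.8% (75.0 to 94.6%, 6 pairs). Between both sets the median was 30.4% (25.0 to 39.3%, 20 pairs). The promoters of Lce1g, Lce1h, Lce1i and Lce1j were about as like those of the 5 Lce1 genes, at 75.9% (41.1 to 92.9%, 20 pairs), as these were to each other. Lce3b was identical to the promoters from Lce3c to Lce3f at a median of 49.1% over 4 pairs. The promoter of Lce1m, the last gene of the cluster, was identical to those of the same 5 Lce1 genes at a median of 32.1% over 5 pairs. Since no gaps were allowed, a base gained or lost shifts all positions upstream of it and lowers these shares. In Lce1b, for example, the stretch between TCACAGG and CAGAGCC is shorter than in Lce1a2. A low share therefore does not show that promoters are unrelated.

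Values are log2 signals per probe set as the authors deposited them, so a difference of 1 is a doubling of signal. The array medians lay between 4.07 and 4.22. Of the Lce probe sets, 13 had a mean over the 8 arrays above the mean of these medians, and the 4 others (Lce1g, Lce1l, Lce3a and the second probe set of Lce1f) were below the median on all 8 arrays. Those 4 lay in the range where no detection call was analysed, so their values are given without a reading. Probe sets whose name ends in _x_at or _s_at can hold probes that match other transcripts, and in a family of near copies the values of Lce1a1 (1420677_x_at), Lce1d, Lce1h, Lce1i, Lce1m, Lce3b and Lce3c are uncertain as to the gene. The skin keratins Krt5 (11.57 to 12.90) and Krt14 (12.31 to 14.22) were high on all 8 arrays. Array quality differed. Over 7 bacterial spike-in probe sets the mean was 10.30 to 11.26 in DNCB+HY209, 9.67 to 11.21 in DNCB and 11.35 to 12.01 in sham. Both sham arrays thus lay above all arrays of the other groups. In comparisons against sham, treatment and spike-in level therefore cannot be told apart. Gapdh signal at the 3′ end over that at the 5′ end was 2.31 to 3.24 in DNCB+HY209, 2.10 to 7.35 in DNCB and 2.81 to 4.46 in sham.

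No Lce probe set differed between groups at an adjusted p under 0.05. This held for 0 of 17 in DNCB+HY209 against DNCB, 0 of 17 in DNCB+HY209 against sham and 0 of 17 in DNCB against sham, by limma with Benjamini-Hochberg adjustment over 45037 probe sets. Over all probe sets the same rule called 0% in DNCB+HY209 against DNCB, 0.155% (50 higher and 20 lower) in DNCB+HY209 against sham and 0.442% (150 higher and 49 lower) in DNCB against sham. At an unadjusted p under 0.05 the Lce counts were 0, 3 and 2 of 17 in that order of comparisons, against 1.52%, 16.5% and 13.2% of all probe sets. The counts are near those background shares and are no result about the family as a whole.

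**Figure D1:**
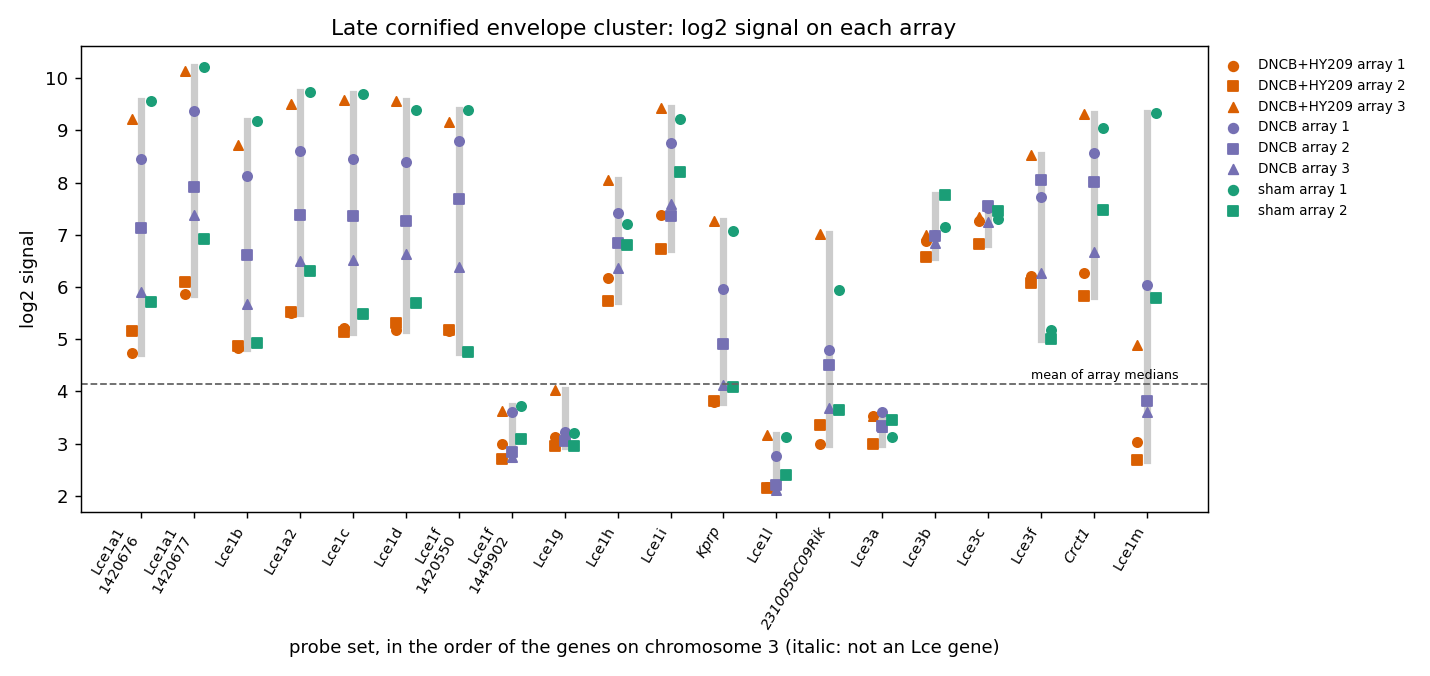
Log2 signal (vertical axis) of each Lce probe set and of the 3 interspersed genes (italic) in chromosomal order (horizontal axis). Points are arrays, coloured by group, the grey bar spans the 8 arrays and the dashed line is the mean of the array medians. From Lce1a1 to Lce1f the arrays of every group are spread over much of the bar, in a repeated order, whereas Lce3b spans 1.19 and Lce3c 0.73 log2 units.

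The first genes of the cluster, Lce1a1 to Lce1f, encode structural envelope proteins of the Lce1 group. Lce1b had 4.83, 4.87 and 8.73 in DNCB+HY209 skin, 8.12, 6.61 and 5.69 in DNCB skin and 9.18 and 4.94 in sham skin. The third DNCB+HY209 array, the first DNCB array and the first sham array were high, and the groups overlapped. Lce1c had 5.22, 5.14 and 9.59 in DNCB+HY209, 8.45, 7.37 and 6.51 in DNCB and 9.69 and 5.49 in sham, the same arrays being high. Lce1a2 had 5.50, 5.53 and 9.50 in DNCB+HY209, 8.60, 7.39 and 6.51 in DNCB and 9.73 and 6.31 in sham. Here too the first sham array exceeded the second by over 3 log2 units.

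Both probe sets of Lce1a1 gave this order. The probe set 1420676_at had 4.74, 5.15 and 9.22 in DNCB+HY209, 8.46, 7.13 and 5.91 in DNCB and 9.56 and 5.71 in sham. The probe set 1420677_x_at had 5.87, 6.10 and 10.14 in DNCB+HY209, 9.38, 7.92 and 7.38 in DNCB and 10.21 and 6.91 in sham. Lce1d had 5.18, 5.31 and 9.56 in DNCB+HY209, 8.39, 7.26 and 6.64 in DNCB and 9.39 and 5.70 in sham, with the third DNCB+HY209 array just above the first sham array. Lce1f (1420550_at) had 5.16, 5.17 and 9.15 in DNCB+HY209, 8.80, 7.70 and 6.38 in DNCB and 9.39 and 4.75 in sham, with the lowest value on the second sham array. The 2 probe sets of Lce1f disagreed in level, since 1449902_at was below the array median throughout, with 3.00, 2.70 and 3.63 in DNCB+HY209, 3.60, 2.83 and 2.75 in DNCB and 3.73 and 3.09 in sham.

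The 7 bright probe sets of these 6 genes were grouped after their values were seen, so what follows describes them and tests nothing. The third DNCB+HY209 array, the first DNCB array and the first sham array were the 3 highest arrays in 7 of 7, and in 9 of the 13 Lce probe sets with a mean above the array medians. The mean of the 7 was 5.22, 5.32 and 9.41 in DNCB+HY209, 8.60, 7.34 and 6.43 in DNCB and 9.60 and 5.69 in sham. Between the highest and the lowest array of a group the probe sets were 3.89 to 4.48 apart in DNCB+HY209, 1.76 to 2.54 in DNCB and 3.30 to 4.64 in sham. Their pooled SD within groups was 1.93 to 2.21, against a median of 0.238 over all probe sets. Of the variation of the 7 probe sets, 90.6 to 94.97% lay within groups, against a median of 67.8% over all probe sets. The share was 38.5% for Lce1m, 36.2% for Lce3b and 46.2% for Lce3f.

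Over the 8 arrays the 7 probe sets correlated pairwise with r of 0.959 to 0.998 (median 0.989, 21 pairs), and with the group means taken out the lowest r was 0.978. The arrays share group, tissue and RNA extract between probe sets, and near copies may share probes, so these coefficients are given with no p. In the plot of the array-to-array pattern the lines of the 7 probe sets run almost in parallel. Quality measures of the arrays were set beside this pattern. On the 3 high arrays (DNCB+HY209 3, DNCB 1 and sham 1) the Gapdh ratio was 2.31, 2.79 and 4.46 and the spike-in mean 10.30, 11.09 and 11.35. On the 3 arrays with the lowest means (DNCB+HY209 1 and 2 and sham 2) the Gapdh ratio was 3.24, 2.62 and 2.81 and the spike-in mean 11.26, 10.36 and 12.01. The listed suprabasal and granular keratinocyte markers (11 of 12 measured) averaged 10.00, 9.42 and 9.46 on the 3 high arrays and 8.10, 8.94 and 8.47 on the 3 low arrays in the same orders. On DNCB array 2 the markers averaged 9.795, above DNCB array 1 and sham array 1, and on DNCB array 3 they averaged 8.58. The mean of the 7 Lce1 probe sets was 7.34 on DNCB array 2 and 6.43 on DNCB array 3. The marker average includes Krt77, which was lower in both DNCB groups than in sham, and Krt2, which was below the median of each array. The part of the quality measures and of the markers in the Lce1 pattern was not tested.

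**Figure D2:**
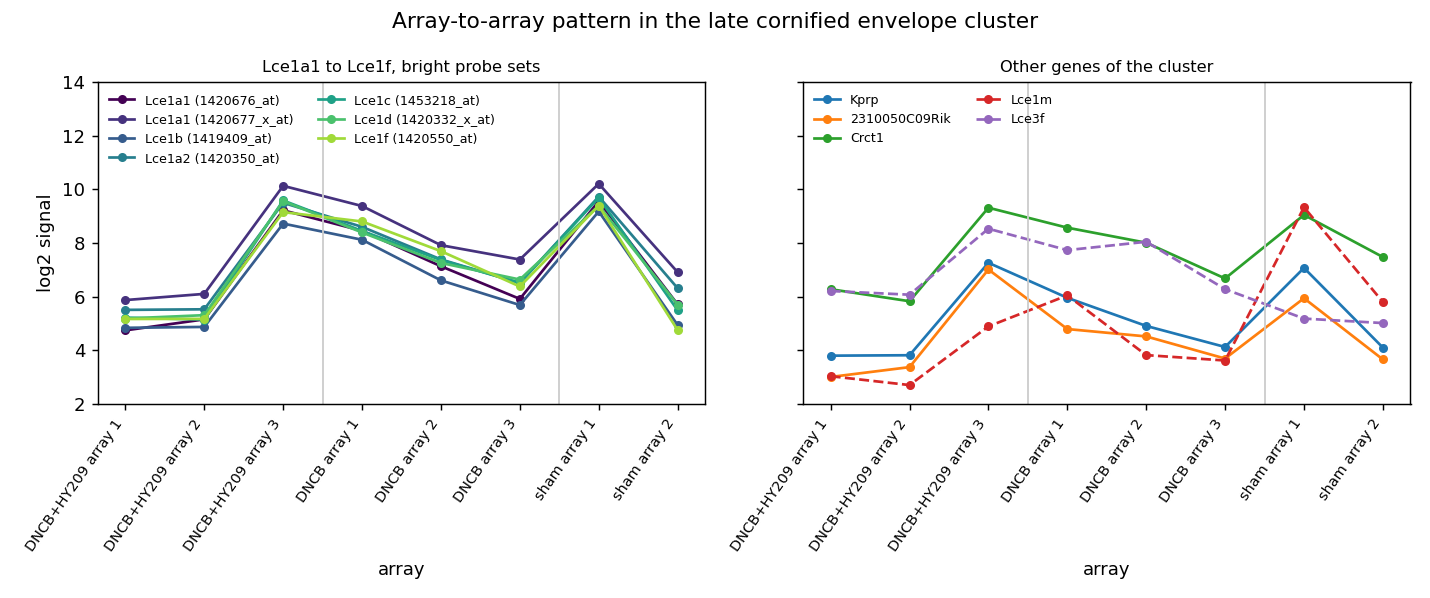
Log2 signal (vertical axis) on each array (horizontal axis, grey lines between groups) for the 7 bright probe sets of Lce1a1 to Lce1f (left) and for 5 other genes of the cluster (right; dashed lines are Lce genes). The left-hand lines peak together on DNCB+HY209 array 3, DNCB array 1 and sham array 1; Kprp, 2310050C09Rik and Crct1 follow them, while Lce3f is low and Lce1m high on the sham arrays.

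The genes between the Lce genes followed the same arrays. Kprp, which encodes a keratinocyte proline-rich protein, had 3.79, 3.81 and 7.26 in DNCB+HY209, 5.95, 4.90 and 4.12 in DNCB and 7.07 and 4.10 in sham. Crct1, which encodes a cysteine-rich protein, had 6.28, 5.83 and 9.32 in DNCB+HY209, 8.57, 8.01 and 6.68 in DNCB and 9.05 and 7.48 in sham. The unnamed gene 2310050C09Rik had 3.00, 3.37 and 7.01 in DNCB+HY209, 4.79, 4.51 and 3.69 in DNCB and 5.94 and 3.65 in sham. Their r with the mean of the 7 Lce1 probe sets was 0.979 for Kprp, 0.940 for Crct1 and 0.937 for 2310050C09Rik over 8 arrays. None passed the test in any comparison. Likeness to the mean of the 10 bright Lce1 probe sets was ranked among 11688 non-Lce genes, each taken by its brightest probe set. The 5 nearest were Kprp (r = 0.978), Fam25c (0.973), Crct1 (0.955), Wfdc21 (0.929) and 2310050C09Rik (0.926). The 3 non-Lce genes of the cluster were thus all among the 5.

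The middle of the Lce1 run spanned less, 2.31 log2 units for Lce1h and 2.69 for Lce1i over the 8 arrays. Lce1h had 6.17, 5.74 and 8.05 in DNCB+HY209, 7.41, 6.85 and 6.37 in DNCB and 7.21 and 6.80 in sham. Lce1i had 7.38, 6.73 and 9.42 in DNCB+HY209, 8.76, 7.36 and 7.58 in DNCB and 9.22 and 8.21 in sham. Both were highest on the third DNCB+HY209 array, and their groups overlapped. Their r with the mean of the 7 was 0.876 for Lce1h and 0.862 for Lce1i. Their upstream sequences, printed above, carry ATAAAA at the same place as Lce1b, and TCACAGG but not CAGAGCC.

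Lce1g and Lce1l stayed below the array medians. Lce1g had 3.12, 2.95 and 4.02 in DNCB+HY209, 3.23, 3.06 and 3.15 in DNCB and 3.21 and 2.95 in sham. Lce1l had 2.18, 2.15 and 3.17 in DNCB+HY209, 2.76, 2.21 and 2.11 in DNCB and 3.13 and 2.40 in sham.

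In tests between groups the Lce1a1 to Lce1f probe sets gave wide intervals. For Lce1f (1420550_at) the log2 difference was -1.13 in DNCB+HY209 against DNCB (SE 1.27, 95% interval -3.94 to 1.68, adjusted p = 1.00 by limma). It was -0.58 in DNCB+HY209 against sham (SE 1.42, -3.71 to 2.56, adjusted p = 0.850) and 0.55 in DNCB against sham (SE 1.42, -2.58 to 3.69, adjusted p = 0.877). For Lce1b the differences were -0.66, -0.91 and -0.25 in the same order of comparisons, with SEs of 1.21, 1.35 and 1.35. Differences of several log2 units in either direction thus lay within the intervals, and a p above the threshold does not show that the groups were alike. Leaving out the first sham array turned the sign of 9 of 17 Lce differences in DNCB against sham and of 10 of 17 in DNCB+HY209 against sham.

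Over all 8 arrays Lce1m had another order than the first genes of the cluster, although the highest array of each group was the same. Its r with the mean of the 7 Lce1a1 to Lce1f probe sets was 0.710. Its values were 3.03, 2.70 and 4.89 in DNCB+HY209 skin, 6.04, 3.82 and 3.61 in DNCB skin and 9.34 and 5.80 in sham skin. All 3 DNCB+HY209 arrays were below both sham arrays, whereas the first DNCB array lay above the second sham array. It exceeded the median of its array on 4 of 8 arrays. Its other values lay below the array medians, in the range given without a reading, so the size of its differences is uncertain. The means were 3.54 ± 1.18 in DNCB+HY209 (SD, n = 3), 4.49 ± 1.35 in DNCB (n = 3) and 7.57 ± 2.50 in sham (n = 2).

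The log2 difference of Lce1m was -4.03 in DNCB+HY209 against sham (SE 1.03, 95% interval -6.31 to -1.75), with an adjusted p of 0.161 by limma. In DNCB against sham it was -3.08 (SE 1.03, -5.35 to -0.80, adjusted p = 0.271), and in DNCB+HY209 against DNCB it was -0.95 (SE 0.919, -2.99 to 1.08, adjusted p = 1.00). With weights for array quality the first of these passed the threshold (-4.67, adjusted p = 0.0233), and in the 20 other alternatives it did not. The weighted fit called 2996 of 45037 probe sets in that comparison, against 70 in the reported fit. A call for 1 of 17 Lce probe sets is near that share over all probe sets. The size rested on the sham arrays: without the first sham array the differences against sham were -2.26 in DNCB+HY209 and -1.31 in DNCB, and without the second they were -5.80 in DNCB+HY209 and -4.84 in DNCB. The comparisons against sham share their 2 sham arrays. Lower arrays without overlap were found for 20.3% of all probe sets in DNCB+HY209 against sham and for 16.3% in DNCB against sham. Among the Lce probe sets this held for 2 (Lce1m and Lce3b) and 1 (Lce3b) of 17.

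The genes most like Lce1m over the 8 arrays, ranked after its values were seen, were Hdhd5 (r = 0.948), Gprin2 (0.948), Krt77 (0.932), Plcxd2 (0.931) and Ypel2 (0.904). Krt77, a suprabasal keratin, had 3.04, 3.22 and 4.18 in DNCB+HY209, 4.85, 3.20 and 3.61 in DNCB and 10.61 and 7.71 in sham. As in Lce1m, the first sham array was highest. Unlike Lce1m, Krt77 passed the test, at -5.68 in DNCB+HY209 against sham (adjusted p = 0.0249) and -5.27 in DNCB against sham (adjusted p = 0.0212). Most Krt77 values in both DNCB groups lay below the array medians, so the size of these differences is uncertain. With each array left out in turn, Krt77 passed in 5 of 8 fits for DNCB+HY209 against sham (not without sham array 1 or DNCB+HY209 array 2 or 3) and in 6 of 8 for DNCB against sham (not without sham array 1 or DNCB array 2). The hair follicle markers (16 of 18 measured) summed to a linear signal of 1900 to 12511 in DNCB+HY209, 757 to 6589 in DNCB and 4085 to 19827 in sham, highest on the first sham array, with 0 of 16 passing the limma test in any comparison. At an unadjusted p under 0.05 the count was 3 in DNCB+HY209 against sham, 7 in DNCB against sham and 0 in DNCB+HY209 against DNCB, where 16.5%, 13.2% and 1.52% of all probe sets reached it. Their part in the Lce1m values was not tested.

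**Figure D3:**
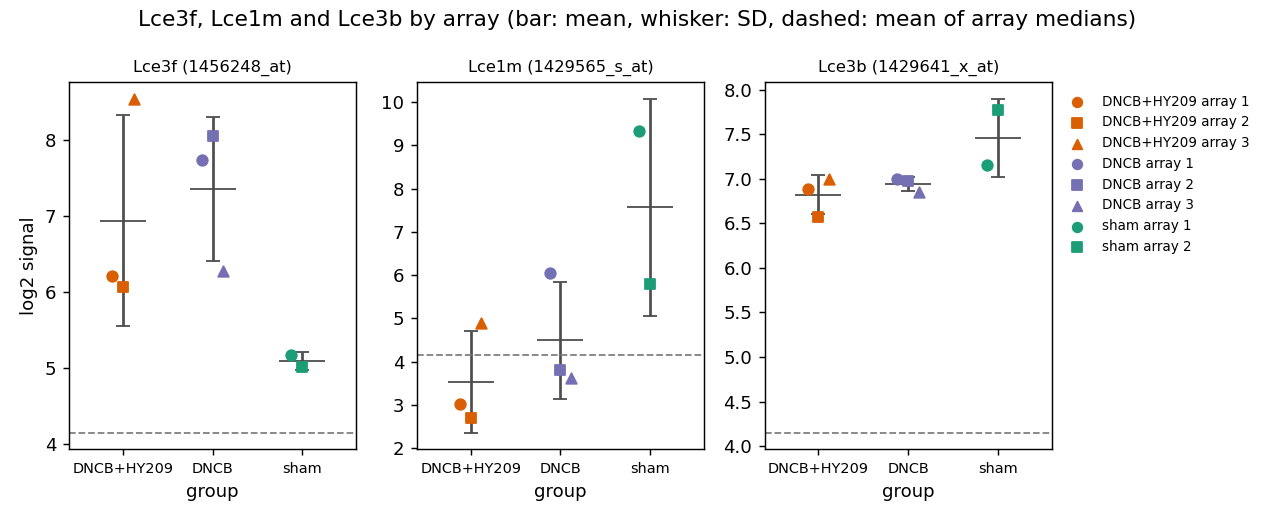
Log2 signal (vertical axes, which differ in range and do not start at 0) by group for Lce3f, Lce1m and Lce3b. Points are arrays, the horizontal bar is the group mean, the whisker the SD and the dashed line the mean of the array medians; all DNCB+HY209 and DNCB arrays lie above the sham arrays for Lce3f and below them for Lce3b.

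Lce3f had higher signal in both DNCB groups than in sham without overlap, but did not pass the test. Its values were 6.21, 6.07 and 8.53 in DNCB+HY209 skin, 7.73, 8.05 and 6.28 in DNCB skin and 5.18 and 5.01 in sham skin. All 6 arrays of DNCB-treated skin lay above both sham arrays, and the DNCB+HY209 and DNCB arrays overlapped. The means were 6.94 ± 1.38 in DNCB+HY209 (SD, n = 3), 7.35 ± 0.94 in DNCB (n = 3) and 5.10 ± 0.12 in sham (n = 2).

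The log2 difference of Lce3f was 1.84 in DNCB+HY209 against sham (SE 0.705, 95% interval 0.28 to 3.41) and did not pass the threshold (unadjusted p = 0.0251, adjusted p = 0.253 by limma). In DNCB against sham it was 2.26 (SE 0.705, 0.69 to 3.82, unadjusted p = 0.00903, adjusted p = 0.243). In DNCB+HY209 against DNCB it was -0.41 (SE 0.630, -1.81 to 0.98, adjusted p = 1.00). Higher arrays without overlap were found for 17.4% of all probe sets in DNCB+HY209 against sham and 14.2% in DNCB against sham, and for 1 of 17 Lce probe sets in each, namely Lce3f. With a covariate for the spike-in mean the differences against sham were 0.96 in DNCB+HY209 and 1.39 in DNCB. Their adjusted p by limma was then 0.820 in DNCB+HY209 and 0.826 in DNCB. Without the third DNCB+HY209 array the DNCB+HY209 difference was 1.04. In all 21 alternatives Lce3f stayed above sham in both comparisons, and its lowest adjusted p was 0.162 in DNCB+HY209 against sham and 0.0808 in DNCB against sham.

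The genes most like Lce3f, ranked after its values were seen, were Ypel3 (r = 0.984), Lpp (0.975), Gramd1a (0.975), Ctsa (0.973) and Cnfn (0.968). Cnfn, which encodes the cornified envelope component cornifelin, had 6.68, 6.46 and 9.42 in DNCB+HY209, 7.98, 9.03 and 5.93 in DNCB and 5.84 and 4.64 in sham. Its DNCB-treated arrays were all above the sham arrays, with adjusted p of 0.281 in DNCB+HY209 against sham and 0.346 in DNCB against sham. The leukocyte markers (9 of 10 measured) summed to a linear signal of 326 to 1045 in DNCB+HY209, 592 to 1913 in DNCB and 144 to 166 in sham. On the DNCB-treated arrays the largest member of this sum was S100a9. It had 7.24, 9.01 and 9.65 in DNCB+HY209, 10.19, 10.68 and 8.54 in DNCB and 3.32 and 4.28 in sham. The median log2 difference of the 9 markers was 0.43 in DNCB+HY209 against sham and 0.36 in DNCB against sham, so the sum does not stand for a like rise of each marker. Of the 9 markers, 2 rose in DNCB against sham (Ptprc and S100a9) and 1 rose in DNCB+HY209 against sham (S100a9). Of all probe sets 0.442% and 0.155% were called in that order. With each array left out in turn, Ptprc passed in 2 of 8 fits, and S100a9 in 3 of 8 for DNCB+HY209 against sham and 5 of 8 for DNCB against sham, with the calls lost without either sham array. RNA came from whole skin, so which cells gave the S100a9 signal cannot be told. The part of leukocytes in the Lce3f values was not tested.

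The other Lce3 genes did not share this rank of groups. Lce3b had 6.89, 6.58 and 7.00 in DNCB+HY209, 7.00, 6.97 and 6.85 in DNCB and 7.15 and 7.77 in sham. Both sham arrays were above all others, by a margin that for the first sham array was small. The log2 difference was -0.64 in DNCB+HY209 against sham (SE 0.262, adjusted p = 0.272) and -0.52 in DNCB against sham (SE 0.262, adjusted p = 0.419). Without the second sham array the difference was -0.33 in DNCB+HY209 and -0.21 in DNCB, and without the first it was -0.95 in DNCB+HY209 and -0.83 in DNCB.

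Lce3c had 7.26, 6.83 and 7.34 in DNCB+HY209, 7.51, 7.56 and 7.25 in DNCB and 7.31 and 7.46 in sham. Its 8 arrays spanned 0.73 log2 units and its groups overlapped, with a log2 difference of 0.06 in DNCB against sham (95% interval -0.50 to 0.61). Lce3a, below the array medians, had 3.53, 3.00 and 3.54 in DNCB+HY209, 3.61, 3.34 and 3.32 in DNCB and 3.13 and 3.45 in sham. For the mean of the 3 bright Lce3 probe sets the 5 nearest genes over 8 arrays were Adgre1 (r = 0.964), Ccl9 (0.957), Add1 (0.955), Klk6 (0.954) and Pf4 (0.950). In that mean Lce3f had the widest span (3.52, against 1.19 for Lce3b and 0.73 for Lce3c), so the list does not describe each Lce3 gene. Adgre1 itself lay between 3.97 and 4.59, near the array medians. The promoters of Lce3c and Lce3f, printed above, belong to the set of like sequences from Lce3c to Lce3f, although the spread of their probe sets over the 8 arrays was 0.73 and 3.52.

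HY209 gel gave no Lce difference beyond the spread of the arrays. In DNCB+HY209 against DNCB, 14 of 17 differences were below 0 and 3 above, with a median of -0.41, against -0.0028 over all probe sets. The arrays of the groups did not overlap for 0 of 17, near the share of 5.38% over all probe sets in this comparison. Intervals were wide, as for Lce1f (1420550_at, -3.94 to 1.68), so the groups are not shown to be alike. The sign of the median rested on few arrays, since without the second DNCB+HY209 array it was 0.00042. Without the third it was -1.21. Against sham the median Lce difference was -0.64 in DNCB+HY209 (3 above 0, 14 below) and -0.25 in DNCB (5 above, 12 below), against -0.032 and -0.028 over all probe sets. Without the first sham array the median was 0.41 in DNCB+HY209 and 0.19 in DNCB.

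**Figure D4:**
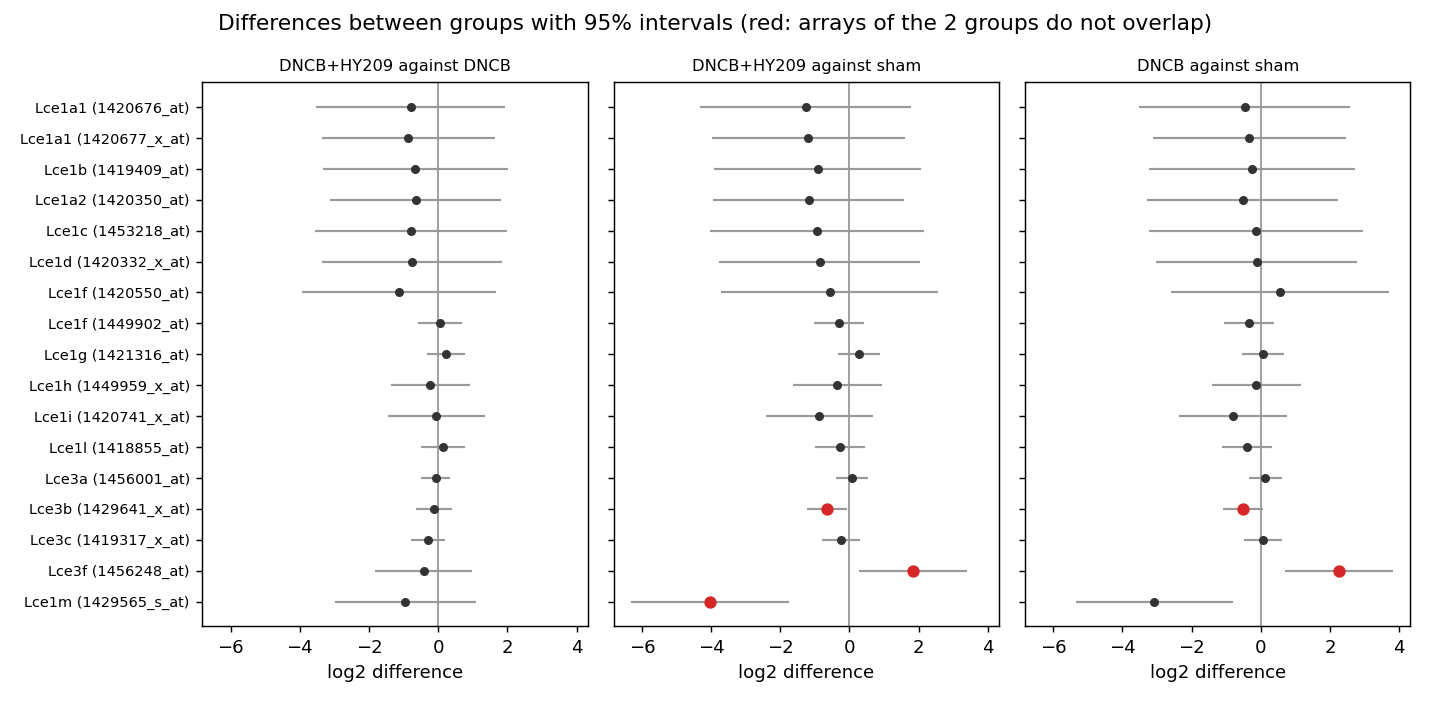
Log2 difference between groups (horizontal axis, with 95% intervals of the limma fit) for each Lce probe set in chromosomal order (vertical axis), in 3 comparisons. Red points are probe sets whose arrays do not overlap between the groups: Lce3b, Lce3f and Lce1m in DNCB+HY209 against sham, Lce3b and Lce3f in DNCB against sham, and none in DNCB+HY209 against DNCB.

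Other genes of cornification passed the test on the same arrays. Of the cornified envelope precursors outside the Lce family (20 of 28 measured, Kprp and Crct1 among them), 3 rose and 0 fell in DNCB against sham, 1 rose and 0 fell in DNCB+HY209 against sham, and 0 changed in DNCB+HY209 against DNCB. Of all probe sets 0.442%, 0.155% and 0% were called in that order, in either direction. The median differences of the precursors were 1.10, 0.64 and -0.30 in that order. Sprr1b, a small proline-rich envelope precursor, had 8.92, 10.32 and 11.24 in DNCB+HY209, 10.46, 12.03 and 9.67 in DNCB and 4.52 and 2.82 in sham. It rose by 6.49 in DNCB+HY209 against sham (adjusted p = 0.0179) and by 7.04 in DNCB against sham (adjusted p = 0.00601). Rptn, which encodes repetin, rose by 5.51 (adjusted p = 0.0330) and Sprr2h by 4.86 (adjusted p = 0.0330) in DNCB against sham. The Sprr2h probe set is of the kind that can match related genes. Rptn in sham (2.63 and 2.30) and Sprr1b on sham array 2 lay below the array medians. The sizes of their rises are therefore uncertain. The calls of these 3 genes rested on single arrays. Sprr1b in DNCB against sham lost its call without sham array 2 (adjusted p = 0.0874). In DNCB+HY209 against sham it lost it without either sham array or DNCB+HY209 array 2 or 3 (highest adjusted p = 0.146). Rptn and Sprr2h each passed in 3 of 8 such fits, and not without either sham array, DNCB array 1 or 2 or DNCB+HY209 array 2 (highest adjusted p 0.241 for Rptn and 0.165 for Sprr2h).

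Lor, the gene of loricrin, the main envelope precursor in mouse skin, had 7.07, 5.78 and 11.31 in DNCB+HY209, 9.42, 9.87 and 6.73 in DNCB and 10.81 and 6.50 in sham. As in the Lce1 run, the third DNCB+HY209 array and the first sham array were highest, and Lor did not pass the test. Filaggrin (Flg) had 7.70, 7.62 and 10.31 in DNCB+HY209, 9.59, 9.51 and 7.20 in DNCB and 6.90 and 2.88 in sham. Its DNCB-treated arrays were above sham without overlap, as for Lce3f, with adjusted p of 0.212 in DNCB+HY209 against sham and 0.227 in DNCB against sham. Of the cross-linking and cornification enzymes (15 of 15 measured, among them the transglutaminases Tgm1, Tgm3 and Tgm5), 0 passed in any comparison, with medians of 1.27 in DNCB+HY209 against sham, 1.29 in DNCB against sham and -0.26 in DNCB+HY209 against DNCB. At an unadjusted p under 0.05 the counts of enzymes were 5, 8 and 0 of 15 in that order, against 16.5%, 13.2% and 1.52% of all probe sets. Of the regulators of epidermal differentiation (22 of 23 measured), 0 passed, with medians of 0.41, 0.34 and 0.07 and counts at an unadjusted p under 0.05 of 6, 6 and 0 of 22 in the same order, beside the same shares of all probe sets. Of the hyperproliferative keratins, 2 of 4 rose in DNCB+HY209 against sham and 3 of 4 in DNCB against sham. The same test called 0.155% and 0.442% of all probe sets in that order. Krt6b, a stress keratin, rose by 8.30 in DNCB+HY209 against sham and by 8.70 in DNCB against sham, and passed in 8 of 8 fits with an array left out in both comparisons. Krt16 likewise passed in 8 of 8, whereas Krt6a, called in DNCB against sham, passed in 3 of 8 and not without either sham array, DNCB array 1 or 2 or DNCB+HY209 array 2.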

How the data were processed

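Total RNA of mouse skin was amplified from the 3′ end, labelled with biotin and hybridised to 8 Affymetrix mouse arrays, per the labels' protocols. These give the 430A array, but 45101 probe sets were present, which is the content of its larger relative, and that annotation was used. Signals were deposited by the authors as log2 values, a scale recognised from their span. Tools listed in the submitters' processing notes are MAS5 and Affymetrix Expression Console, with no version. How arrays were normalized to each other was not stated in any source at hand. The number of arrays limits the precision.

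The 64 control probe sets were left out, and 45037 were tested with no filter on low values, so that each Lce probe set has a value. limma 3.58.1 in R 4.3.3 (lmFit, eBayes with an intensity trend) was fitted to all 8 arrays in 3 groups, 2-sided, with Benjamini-Hochberg adjustment over all 45037 and a threshold of 0.05. SE is the moderated standard error. The fit was also run on simulated arrays with independent noise for each probe set and known changes in DNCB. These lacked the pattern shared between probe sets described above, so the run does not cover it. The Lce probe sets, the 11 gene lists and the tests were chosen with earlier results of these data known. For other genes the probe set with the highest mean was used, and up to 3 passing members of a list were open to naming, besides genes named for comparison after their values were seen. Likeness is Pearson's r over 8 arrays, for the 5 nearest genes with a mean above the array medians. Replicate numbers were checked as pairs of DNCB+HY209 and DNCB arrays: their deviations correlated at 0.248, 0.206 and -0.583, so the numbers were not taken as pairs. Alternatives, 21 per comparison, changed the normalization, the filter, the variance model, the arrays or the covariates. Promoters are from RefSeq (GRCm38.p6). Figures were drawn with Python 3.11.15 and matplotlib 3.10.9.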

Additional observations from a re-analysis of the deposited data

How the results depend on the processing

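The count of Lce probe sets past the threshold stayed at 0 under 21 of 21 alternatives in DNCB+HY209 against DNCB and in DNCB against sham. In DNCB+HY209 against sham it was 1 with array weights (Lce1m, -4.67, adjusted p = 0.0233) and 0 in the other 20, where leaving out each array in turn gave 0 throughout. With the replicate number as a replicate block the count was 0 in each comparison, and the counts over all probe sets were 12 in DNCB+HY209 against sham and 39 in DNCB against sham. Over all probe sets the counts ran from 8 to 2996 in DNCB+HY209 against sham (70 in the reported fit, the highest with array weights) and from 8 to 487 in DNCB against sham (199 in the reported fit, the lowest without both arrays of extreme spike-in level). They were 0 under each alternative in DNCB+HY209 against DNCB. The smallest adjusted p among Lce probe sets ranged from 0.366 to 1.00 in DNCB+HY209 against DNCB, 0.0233 to 0.520 in DNCB+HY209 against sham and 0.0808 to 0.651 in DNCB against sham. The causes were not tested. Signal near or below the array median limits what can be said of Lce1g, Lce1l, Lce3a and Lce1m.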
